A study of Homo sapiens with 6 samples.

Results

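Transcripts of the insulin-like growth factor (IGF) axis were followed in MDA-MB-231 cells after knockdown of BYSL. The set held 10 genes of the 29538 in the count table: the binding protein genes IGFBP3, IGFBP4 and IGFBP6, the related genes IGFBP7 and IGFBPL1, the receptor genes IGF1R, INSR and IGF2R, and the receptor substrate genes IRS1 and IRS2. They were taken by gene symbol, and all 10 were among the 16412 genes tested. IGFBPL1 led to the choice of the set because it had the largest rise among abundant genes between the groups compared here, so the differences between groups are given for these 10 genes as a description. Where a member is said to pass the threshold used for all genes ("called"), that too is a description and no evidence of its own.

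MDA-MB-231 cells are an established human breast cancer line with invasive growth, and BYSL encodes bystin, a factor for assembly of the small ribosomal subunit. One group of 3 cultures received a negative-control siRNA (siNC) and the other group of 3 received SI-BYSL-Homo-838, a single siRNA against BYSL (siBYSL). Both groups were transfected with 160 pmol siRNA per well with Lipofectamine RNAiMAX, given new medium at 6 h and harvested at 48 h, and each of the 6 cultures is labelled a biological replicate. The cells grew in medium with serum, which brings its own growth factors, and the labels name no added ligand.

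IGF-I, IGF-II and insulin are ligands of a small family of tyrosine kinase receptors, IGF1R and INSR, which pass the signal on through the docking proteins IRS1 and IRS2 to PI3K, AKT and RAS. Secreted binding proteins hold IGFs in the extracellular space, where they lengthen their life and keep them from, or deliver them to, the receptor; proteases release the ligand again. IGF2R binds IGF-II too but has no kinase: it takes the ligand up for breakdown and, as the cation-independent mannose 6-phosphate receptor, carries newly made enzymes to lysosomes. In breast cancer cells this axis is known for its part in growth and survival.

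The libraries held 27754883 to 32088817 counts. BYSL stood at 104, 94.5 and 101 CPM (counts scaled to library size) in the 3 siNC libraries and at 15.9, 15.7 and 17.4 CPM in the 3 siBYSL libraries, so every library followed its label (log2 fold change -2.61, SE 0.067, edgeR quasi-likelihood test, adjusted p = 9.4e-09). The line's mesenchymal gene VIM stood at 2404 CPM in siNC and the hormone receptor genes ESR1 and PGR at 0.024 and 0.26 CPM, while SPARC, also on the mesenchymal list, stood at 0.84 CPM. Of 6 mesenchymal markers 4 fell and 1 rose at an edgeR adjusted p below 0.05, where 18.4% of all tested genes fell and 18.5% rose. The sum of the 6 went from 5267 to 5343 CPM in siNC to 4450.4 to 4655 CPM in siBYSL. Of 8 luminal and epithelial markers 3 rose (CDH1 by 1.04, EPCAM by 0.54 and CLDN3 by 0.81 on the log2 scale) and KRT19 and CLDN4 fell. GRHL2, also among the 8, was not tested. The sums of the 8 overlapped, at 1742 to 1886 CPM in siNC and 1621 to 1982 CPM in siBYSL. The part of these markers in the results below was not tested. Markers of non-epithelial cell types were low: 3 leukocyte, 4 endothelial and 5 fibroblast genes summed to at most 6.25, 12.2 and 13.6 CPM in any library. Library siBYSL 3 stood apart from siBYSL 1 and 2, with a chi-square per degree of freedom of 22 and 13.5 against 3.42 between those 2. Its difference from them followed gene length, which matters for this set because its receptor and substrate genes are long and its binding protein genes short. Among genes of 10 CPM or more, siBYSL 3 lay above the mean of siBYSL 1 and 2 by a median of 0.23 on the log2 scale for 667 genes with 1000 to 2000 exon bases, and below it by a median of -0.13 for 2256 genes of 8000 bases or more. Against the siNC mean, the mean of siBYSL 1 and 2 had medians of -0.17 and 0.058 in these length classes. For siBYSL 3 the medians against siNC were 0.045 and -0.062. The difference between groups thus varied with length too, and the part of length in the results below was not tested.

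Levels can be compared between genes only per length, so the CPM of each gene was divided by its exon length in kilobases (the union of GENCODE 29 exons). In siNC the binding protein and related genes other than IGFBP3 held the top of that order. IGFBP4 had 682 ± 18.5 CPM per kilobase (SD, n = 3), IGFBP7 159 ± 4.38, IGFBP6 53.7 ± 2.84 and IGFBPL1 9.94 ± 0.662. IRS1 (8.23 ± 0.0778) and IGF2R (7.81 ± 0.323) came next, then IGFBP3 (5.84 ± 0.0653) and IRS2 (3.17 ± 0.202). The kinase receptors stood last, INSR at 2.20 ± 0.138 and IGF1R at 1.31 ± 0.0792 CPM per kilobase. No neighbours in this order overlapped over the 3 siNC libraries, but the order depends on the gene model: with the longest transcript as the length, IGFBP3 moved from place 7 to place 4 with 11.1 CPM per kilobase. In siBYSL the places of IRS1 and IGF2R were exchanged with the exon union as the length, and so were those of IRS2 and INSR. With the longest transcript IRS2 and INSR were exchanged too, but IGF2R held place 6 and IRS1 place 7 in both groups. There IGFBP3 and IGFBPL1 exchanged places 4 and 5.

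**Figure D1:**
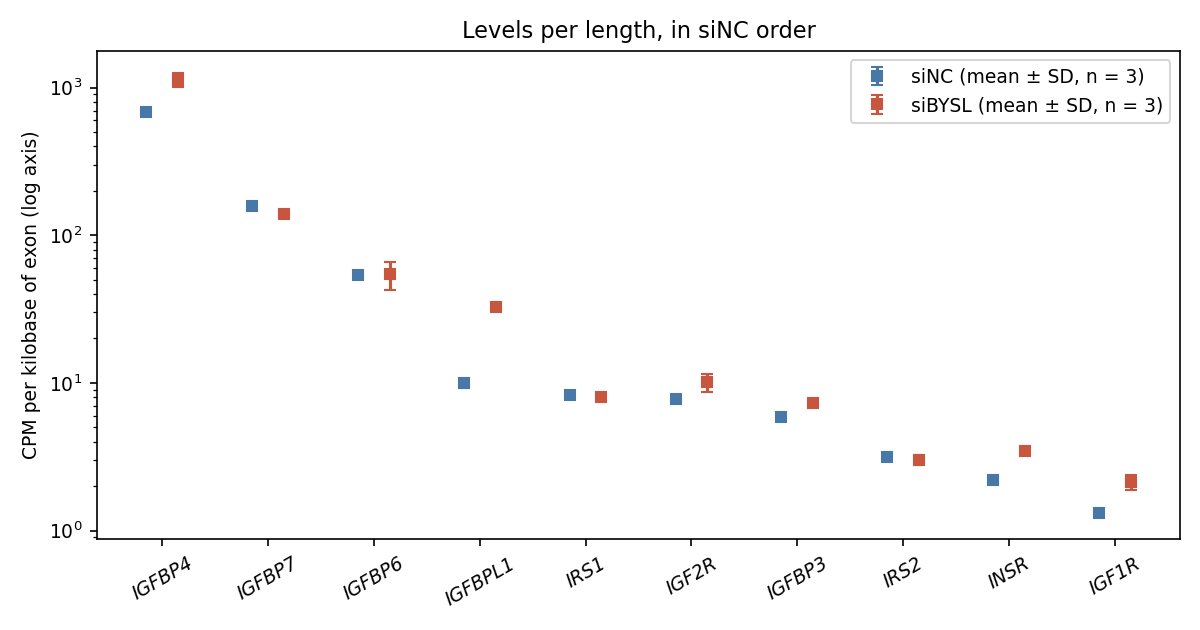
Level of each gene as CPM per kilobase of exon on a log axis, with genes in the order of their siNC level; squares are means of 3 libraries and bars are SD. IGFBP4 lies highest in both groups (682 in siNC and 1135 in siBYSL), and IGF1R lowest (1.31 and 2.13).

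Of the 10 genes, 6 were higher and 1 was lower in siBYSL, with adjusted p below 0.05 in the fit over all genes, and the same 7 did not overlap between groups. Over all tested genes 36.9% were called in either direction, 18.5% higher and 18.4% lower, and 49.6% did not overlap between groups, 24.7% higher and 24.9% lower. As the set was chosen from this contrast, nothing is read from these shares. The median log2 fold change of the 10 genes was 0.34, and that of all tested genes 0.0066. Both substrate genes and IGFBP6 were the members that were not called. In bulk RNA a change of transcripts per cell and a change in the number of cells that carry them cannot be told apart.

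**Figure D2:**
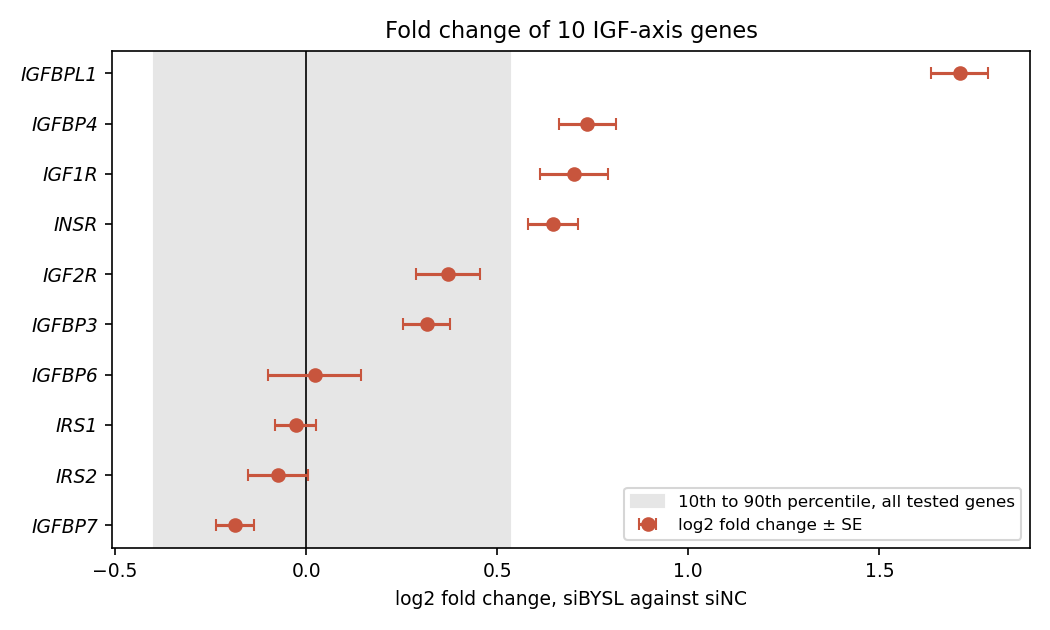
Log2 fold change of the 10 genes, siBYSL against siNC, with SE bars from the edgeR fit; the grey band spans the 10th to the 90th percentile of all tested genes, -0.40 to 0.53. IGFBPL1 (1.71), IGFBP4 (0.74), IGF1R (0.70) and INSR (0.65) lie above the band, and none of the 10 lies below it.

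IGFBPL1 (ENSG00000137142.5) encodes a secreted protein related to IGFBP7, with an IGFBP domain followed by Kazal-like and immunoglobulin-like parts. The gene lies on chromosome 9 of GRCh38 from 38408994 to 38424447 on the minus strand and has 5 exons with 1093 bases in all. The siNC libraries held 327, 294 and 309 raw counts and the siBYSL libraries 983, 1169 and 1072, or 11.7, 10.5 and 10.4 CPM against 34.1, 35.4 and 37.2 CPM. The 3 siBYSL libraries lay close together and far above all 3 siNC libraries, at 314%, 326% and 342% of the siNC mean. The log2 fold change was 1.71 (SE 0.074), which 48 of the 16412 tested genes reached, IGFBPL1 included, but only IGFBPL1 among the 9932 genes of 10 CPM or more. The next gene of that kind was FBN1, for the microfibril protein fibrillin-1, at 1.56. Without siBYSL 3 the value was 1.68.

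Genes were ranked by how closely their centred log2 CPM followed that of IGFBPL1 over the 6 libraries, by Euclidean distance, among genes of 10 CPM or more. The 5 nearest of 9931 were SOX4, a transcription factor gene (distance 0.46), FBN1 (0.48), RGS19, a regulator of G protein signalling (0.54), COL7A1, the anchoring-fibril collagen (0.55), and NPR3, the natriuretic peptide clearance receptor (0.56). Their log2 fold changes ran from 1.30 in RGS19 to 1.56 in FBN1. None of these genes encodes a member of the IGF axis. With 6 libraries in 2 groups this measure is mostly the size of the group difference.

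The promoters of 9 of the 10 genes were found in the RefSeq table (GRCh38.p14; 250 bases before to 50 after the start), and not that of IGFBP7. The window of IGFBPL1 is shown because that gene had the largest difference, that of IGF2R because few promoters hold its 3 copies of CACGTG, and that of IGFBP4, the member of highest level, for its TATA box. Capitals mark CCAAT in IGFBPL1, CACGTG (the E-box core) in IGF2R and TATAAA in IGFBP4; both strands were searched.
IGFBPL1, chr9:38424405-38424704, minus strand: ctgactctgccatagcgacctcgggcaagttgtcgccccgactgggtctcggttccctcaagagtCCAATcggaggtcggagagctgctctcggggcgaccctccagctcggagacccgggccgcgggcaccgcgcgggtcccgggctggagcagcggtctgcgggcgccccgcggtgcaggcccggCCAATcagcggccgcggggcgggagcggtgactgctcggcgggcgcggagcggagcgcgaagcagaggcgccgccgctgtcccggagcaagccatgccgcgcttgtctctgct
IGF2R, chr6:159968832-159969131, plus strand: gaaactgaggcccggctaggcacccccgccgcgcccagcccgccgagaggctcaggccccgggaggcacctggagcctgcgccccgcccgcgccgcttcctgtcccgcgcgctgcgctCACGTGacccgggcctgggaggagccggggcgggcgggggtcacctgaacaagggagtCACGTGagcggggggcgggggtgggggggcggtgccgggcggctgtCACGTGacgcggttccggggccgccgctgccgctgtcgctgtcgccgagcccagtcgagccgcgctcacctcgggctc
IGFBP4, chr17:40443200-40443499, plus strand: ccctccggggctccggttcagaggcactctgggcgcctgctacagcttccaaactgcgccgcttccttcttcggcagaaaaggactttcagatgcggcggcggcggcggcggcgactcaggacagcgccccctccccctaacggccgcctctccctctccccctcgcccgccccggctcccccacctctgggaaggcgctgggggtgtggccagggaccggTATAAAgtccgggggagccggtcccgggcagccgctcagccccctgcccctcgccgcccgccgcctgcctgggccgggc
The IGF2R window held 3 copies of CACGTG, at -132, -74 and -28 from the start, IRS1 held 1 and the other 7 held 0. Of 35116 promoters of this length 7.26% held the hexamer and 0.094% held 3 or more copies. CCAAT was found in 2 copies in IGFBPL1, at -185 and -63, and in 2 copies in IRS2, against 34.6% of all promoters with 1 or more. TATAAA was found only in IGFBP4 among the 9, at -29, and in 11.5% of all promoters. The forkhead core TGTTTAC, which is bound by FOXO factors downstream of insulin, was found only in IGFBP6, and in 3.42% of all promoters. All 9 windows held GGGCGG (the GC box), as did 45.0% of all promoters. The number of CpG dinucleotides ran from 12 in IGFBP6 to 55 in IGF1R, against a median of 14 per promoter. These are matches of letters in a window and not binding sites; IGF2R and IRS1 both hold CACGTG, with log2 fold changes of 0.37 and -0.027.

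The binding protein genes moved unequally. IGFBP4 (ENSG00000141753.7, chromosome 17, 40443461 to 40457731, plus strand, 4 exons) encodes an inhibitory binding protein that is cut by pappalysin. It stood at 1547, 1469.9 and 1485 CPM in siNC 1 to 3 and at 2265, 2436 and 2793 CPM in siBYSL 1 to 3. All siBYSL libraries were higher than all siNC libraries, and siBYSL 3 was the highest, at 186% of the siNC mean against 151% and 162% in siBYSL 1 and 2. The log2 fold change was 0.74 (SE 0.075), or 0.65 without siBYSL 3. IGFBP4 was number 38 by raw count in each siNC library and number 22 or 23 in each siBYSL library.

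IGFBP3 (ENSG00000146674.16, chromosome 7, 45912245 to 45921874, minus strand) encodes the main carrier of IGFs in serum. It stood at 26.8, 26.3 and 26.9 CPM in siNC 1 to 3 and at 33.9, 34.1 and 31.5 CPM in siBYSL 1 to 3, with no overlap and a small difference (log2 fold change 0.32, SE 0.061). IGFBP6 (ENSG00000167779.9, chromosome 12, 53097436 to 53102345, plus strand), which prefers IGF-II, stood at 74.6, 67.8 and 74.3 CPM in siNC and at 61.5, 67.0 and 91.7 CPM in siBYSL. Here siBYSL 1 and 2 lay below every siNC library and siBYSL 3 above every siNC library. The log2 fold change of 0.022 (SE 0.12) thus averages libraries of opposite direction; without siBYSL 3 it was -0.17, and the gene was then called lower. IGFBP6 has 1346 exon bases. For genes of 1000 to 2000 bases the mean of siBYSL 1 and 2 against siNC had a median of -0.17, so the fall of IGFBP6 there was like that of its length class. The siBYSL 3 value of IGFBP6 exceeded the mean of siBYSL 1 and 2 by 0.51, more than the upper quartile of 0.33 for that class. The part of length in these values was not tested.

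IGFBP7 (ENSG00000163453.11, chromosome 4, 57030773 to 57110385, minus strand), a secreted protein of the vessel wall and stroma that binds IGFs weakly, was the only member of the set called lower. It stood at 303, 301 and 316 CPM in siNC 1 to 3 and at 264, 268 and 276 CPM in siBYSL 1 to 3. The ranges were close but did not overlap, and the difference was small (log2 fold change -0.19, SE 0.050). It lost its call with library totals as the scaling (-0.11), without siNC 3 (-0.16) and without siBYSL 2 (-0.18). IGFBP7 has 1930 exon bases, and siBYSL 1, 2 and 3 lay at -0.22, -0.19 and -0.15 against the siNC mean on the log2 scale. For genes of 1000 to 2000 bases the median against siNC was -0.17 for the mean of siBYSL 1 and 2. For siBYSL 3 it was 0.045. The part of length in the difference of IGFBP7 was not tested. Exons of POLR2B and of the antisense gene IGFBP7-AS1 overlap IGFBP7 on the other strand. Library preparation kept the strand, but whether counting used it is not given in the sources used here. IGFBP7-AS1 held 93 to 104 counts in siNC and 67 to 91 in siBYSL, against 7615 to 9383 for IGFBP7. POLR2B held far more, 4659 to 5158 counts in siNC and 4004 to 5752 in siBYSL. How many reads came from the shared exon stretches is not known, and their part in the difference of IGFBP7 was not tested. The endothelial genes PECAM1 and VWF stood at 5.32 and 0.071 CPM in siNC, so markers of vessel cells were low beside IGFBP7.

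**Figure D3:**
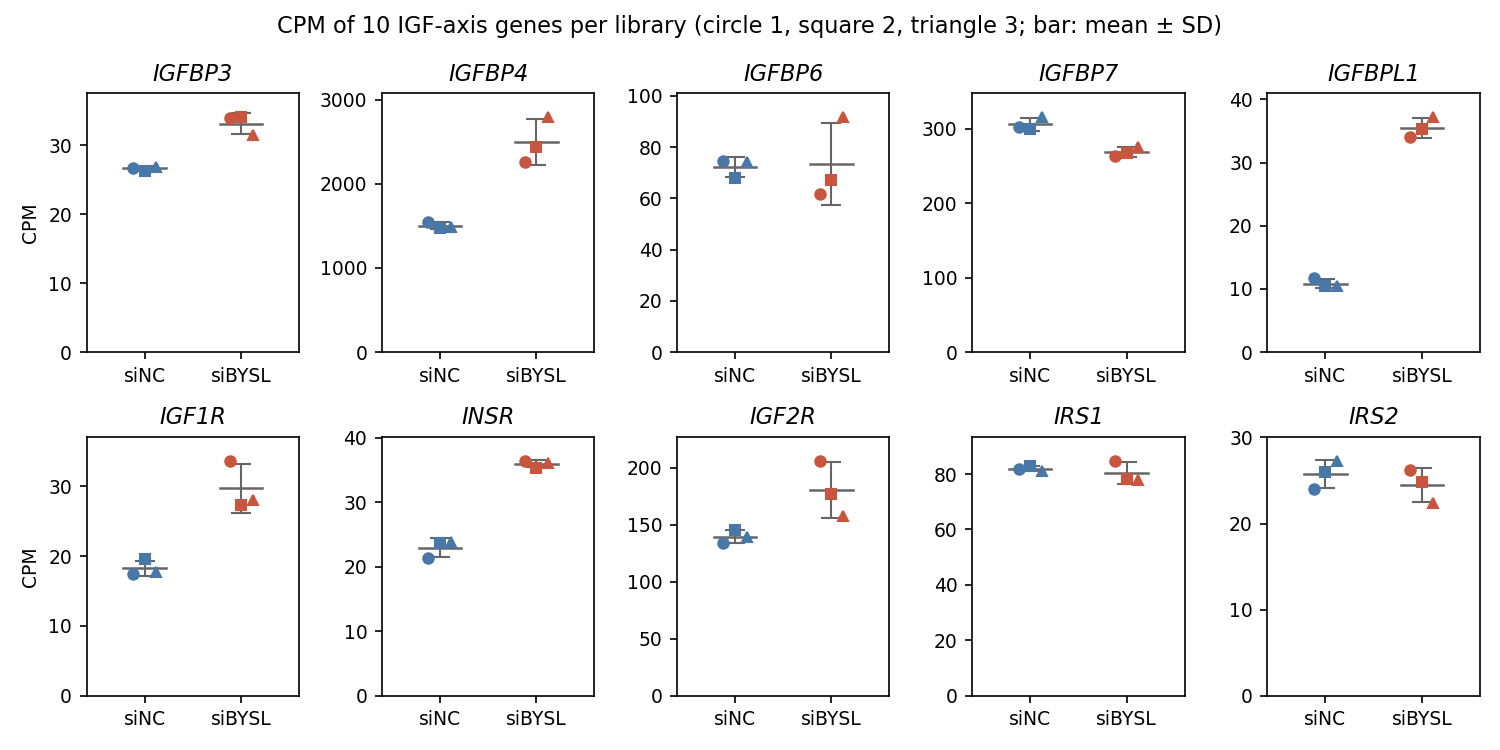
CPM of the 10 genes in each of the 6 libraries, each panel with its own axis from 0; circles, squares and triangles are replicates 1, 2 and 3, and bars are mean ± SD (n = 3). IGFBPL1, IGFBP4, IGFBP3 and the 3 receptor genes lie higher in every siBYSL library, IGFBP7 lower, and siBYSL 3 of IGFBP6 lies above the other 5 libraries at 91.7 CPM.

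Ratios of genes inside a library need no scaling factor. The ratio of IGFBP4 to IGFBP7 counts was 4.90 ± 0.207 in siNC and 9.26 ± 0.776 in siBYSL (SD, n = 3). Summed per kilobase over the 5 binding protein and related genes of the set, IGFBP4 held 74.2% to 75.5% of the pool in siNC libraries and 82.3% to 83.4% in siBYSL libraries. IGFBP7 held 16.8% to 18.0% and then 9.41% to 10.9%, and IGFBPL1 held 1.05% to 1.15% and then 2.24% to 2.49%. IGFBP6 held 5.67% to 6.07% and then 3.66% to 4.48%, and IGFBP3 held 0.629% to 0.648% and then 0.453% to 0.594%. The shares of IGFBP4 and IGFBPL1 were thus higher, and those of the other 3 lower, in every siBYSL library, IGFBP3 included although its CPM was higher: a share falls when the rest of the pool grows. IGFBPL1 was a small part of the pool in both groups.

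The receptor genes all stood higher in siBYSL. IGF1R (ENSG00000140443.15, chromosome 15, 98648539 to 98964530, plus strand), the receptor of IGF-I and IGF-II, stood at 17.5, 19.5 and 17.8 CPM in siNC 1 to 3 and at 33.7, 27.4 and 28.1 CPM in siBYSL 1 to 3. siBYSL 1 was the highest, and no siBYSL library reached down to the siNC range (log2 fold change 0.70, SE 0.090). INSR (ENSG00000171105.14, chromosome 19, 7112255 to 7294034, minus strand), the insulin receptor, stood at 21.3, 23.7 and 23.9 CPM in siNC and at 36.5, 35.4 and 36.0 CPM in siBYSL. Its values varied by 6.29% in siNC and 1.53% in siBYSL (coefficient of variation), against medians of 3.94% and 6.75% for 1001 genes of like level, and its log2 fold change was 0.65 (SE 0.066). The ratio of IGF1R to INSR counts was 0.796 ± 0.0437 in siNC and 0.826 ± 0.0853 in siBYSL, with overlapping ranges, so the proportion of the 2 kinase receptors did not differ beyond the spread of the replicates.

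IGF2R (ENSG00000197081.16, chromosome 6, 159969099 to 160113507, plus strand), with 48 exons in its main transcript, stood at 134, 145 and 139 CPM in siNC 1 to 3 and at 206, 177 and 158 CPM in siBYSL 1 to 3. The groups did not overlap, but siBYSL 3 lay at 113% of the siNC mean and siBYSL 1 at 148%. The log2 fold change was 0.37 (SE 0.084), and 0.46 without siBYSL 3. IGF2R is the longest gene of the set at 17843 exon bases, and its siBYSL 3 value lay below the mean of siBYSL 1 and 2 by 0.27, the largest such fall among the 10. The ratio of IGF2R to IGF1R counts was 7.64 ± 0.200 in siNC and 6.07 ± 0.415 in siBYSL, lower in all 3 siBYSL libraries.

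**Figure D4:**
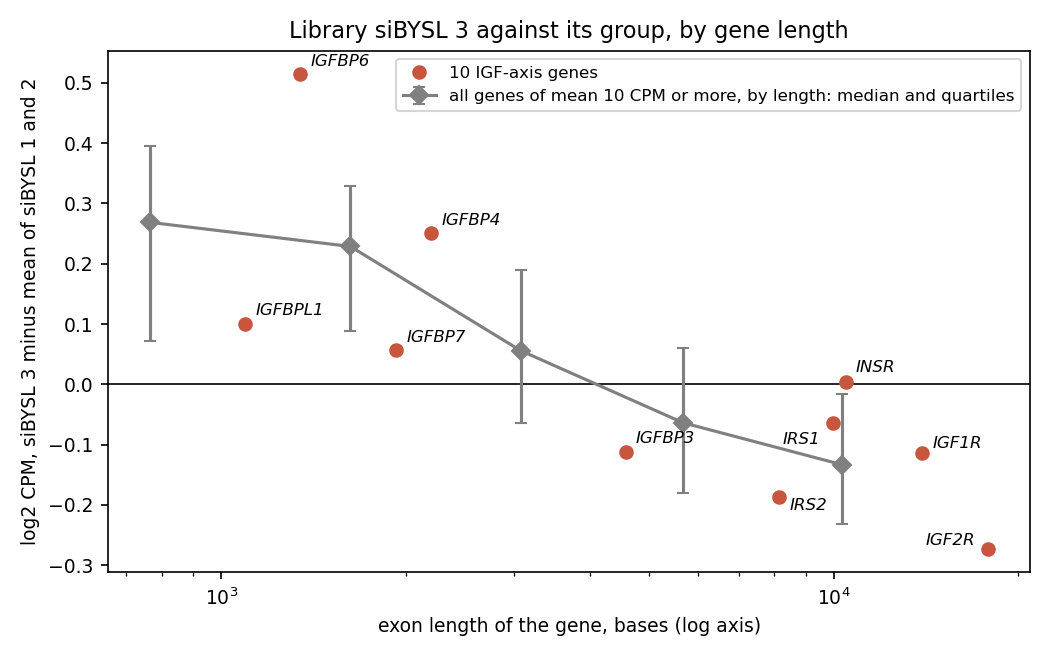
Difference of log2 CPM between library siBYSL 3 and the mean of siBYSL 1 and 2, against exon length on a log axis; red points are the 10 genes, and grey diamonds and bars are medians and quartiles of all genes of mean 10 CPM or more in 5 length classes. The medians run from 0.27 in genes under 1000 bases to -0.13 in genes of 8000 bases or more; IGFBP6 (0.51), IGFBP4 (0.25) and INSR (0.0038) lie above the quartile bar of their length class, IGF2R (-0.27) and IGFBP7 (0.056) below, and the other 5 within it.

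The substrate genes showed no difference beyond the spread of the replicates. IRS1 (ENSG00000169047.6, chromosome 2, 226731317 to 226799759, minus strand) encodes the main docking protein of both kinase receptors. It stood at 81.9, 82.7 and 81.2 CPM in siNC 1 to 3 and at 84.9, 78.4 and 78.0 CPM in siBYSL 1 to 3. Its log2 fold change was -0.027 (SE 0.053), with a 95% interval of -0.13 to 0.077. IRS2 (ENSG00000185950.9, chromosome 13, 109752698 to 109786568, minus strand), its close relative, stood at 24.0, 25.9 and 27.3 CPM in siNC and at 26.2, 24.8 and 22.4 CPM in siBYSL (log2 fold change -0.074, SE 0.078, interval -0.23 to 0.079). Both directions turned with library totals as the scaling, to 0.051 and 0.0047, and the groups overlapped for both genes. The ratio of receptor counts to substrate counts therefore changed with the receptors. That of IGF1R to IRS1 counts was 0.223 ± 0.0118 in siNC and 0.369 ± 0.0252 in siBYSL, and that of INSR to IRS1 0.280 ± 0.0179 and 0.448 ± 0.0163. These ratios are not corrected for gene length, so only their change between groups can be read. The ratio of IRS1 to IRS2 was 3.19 ± 0.218 and 3.29 ± 0.171.

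The knockdown rests on a single siRNA, and an siRNA can act on other transcripts through its seed, bases 2 to 8 of a strand, so the 3′ UTRs of the 10 genes were searched for the heptamers that pair with the seeds. Both strands are shown 5′ to 3′ with the seed in capitals, and below them the 2 sites of the guide strand that were found, with the heptamer GCTGAAT in capitals.
guide strand: uAUUCAGCaacgucaucuctt
passenger strand: gAGAUGACguugcugaauatt
INSR site, chr19:7115425-7115431, minus strand: tggtgcctgaGCTGAATgctcaggtgc
IGF2R site, chr6:160110028-160110034, plus strand: tttgggaaatGCTGAATtgaagtgaaa
Of 13069 tested genes with a 3′ UTR, 11.9% held GCTGAAT. INSR held 1 copy in a 3′ UTR of 4801 bases, where 26.9% of genes with a 3′ UTR of like length held 1 or more. IGF2R held 1 in 6420 bases, where 34.9% did, and both genes were higher in siBYSL. IGFBP7, the member called lower, held 0 copies of GCTGAAT and 0 of the passenger heptamer GTCATCT. IGF1R held 0 copies in 7088 bases, where 38.6% did. A copy of GTCATCT was found in IGF2R and in IRS1. Seeds of the control siRNA were not searched, and the part of seed sites in the differences was not tested.

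Other genes of the pathway were put in 7 lists by function, none of which holds a member of the set. Of 100 tested genes on these lists 18 rose and 19 fell, 37.0% in all, close to the 36.9% of all genes, and their median log2 fold change was -0.054. The lists as a whole were thus called no more often than genes in general, and the values below describe single genes. Adjusted p-values are from the edgeR quasi-likelihood test over all 16412 genes. Without siBYSL 3 the count of rises was 28, while rises over all genes went from 3032 to 3929.

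**Figure D5:**
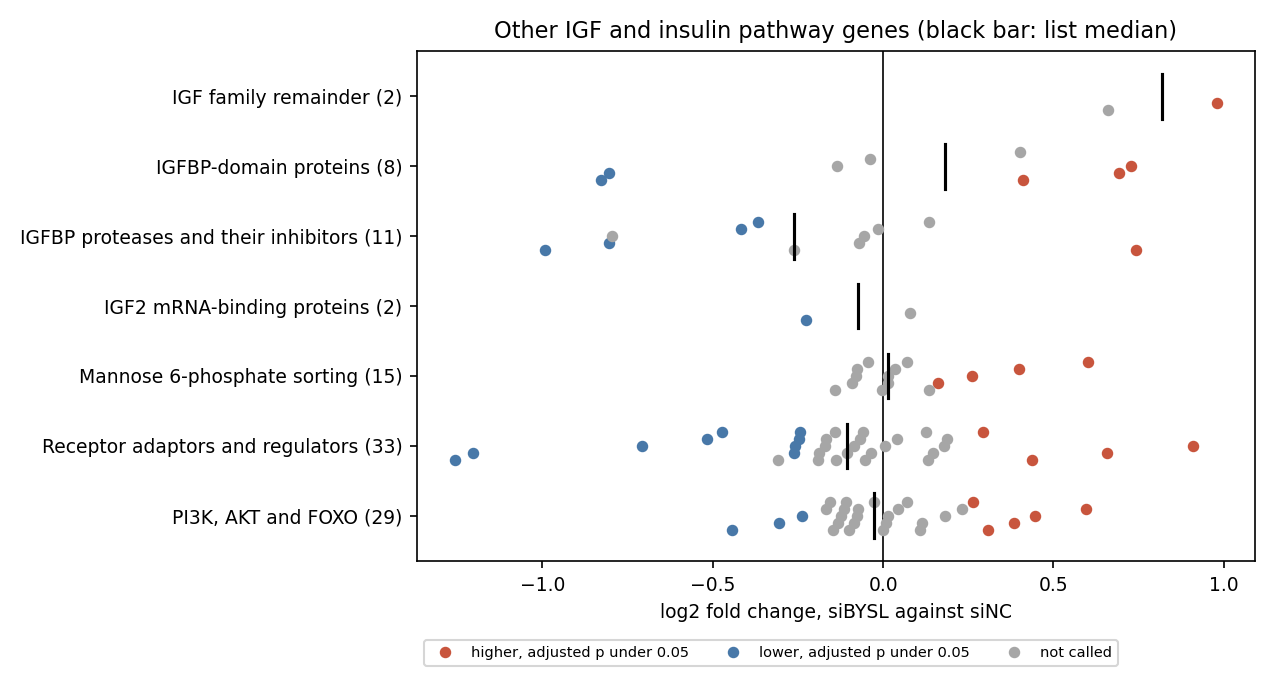
Log2 fold change, siBYSL against siNC, of each tested gene on 7 lists of IGF and insulin pathway genes, with the number tested in brackets; red and blue points passed an edgeR adjusted p of 0.05, grey points did not, and black bars are list medians. Called genes lie on both sides of 0 in the IGFBP-domain, protease, adaptor and PI3K lists, and only above 0 in the mannose 6-phosphate list, where 4 of 15 were called.

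Of 2 tested genes among the rest of the IGF family, IGFBP1 rose and IGF2 was not called. IGFBP1, a binding protein gene that insulin represses in liver, lies beside IGFBP3 on chromosome 7 at a distance of 18.6 kb on the opposite strand. It rose from 34.3, 35.3 and 34.3 CPM in siNC 1 to 3 to 68.9, 68.8 and 67.1 CPM in siBYSL 1 to 3 (log2 fold change 0.98, SE 0.053, adjusted p = 8.9e-07), more than its neighbour IGFBP3 at 0.32. The ligand gene IGF2 was near the limit of detection at 0.713 ± 0.163 CPM in control and 1.14 ± 0.274 CPM in knockdown libraries (adjusted p = 0.0757); with library totals both genes of this list were called higher. IGFBP2 and IGFBP5 held at most 11 counts and 1 count in any library and were not tested. The ligand genes IGF1 and INS, and IGFALS, INSRR and IRS4, were on the list but were not found by symbol in the count table.

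Of 8 tested genes for other proteins with an IGFBP domain, 3 rose and 2 fell (62.5% called, against 36.9% of all genes, median 0.18). The matricellular genes CCN1 and CCN2 fell, CCN1 from 961 ± 42.0 to 541 ± 13.6 CPM (log2 fold change -0.83, adjusted p = 2.8e-06) and CCN2 from 195 ± 4.71 to 112 ± 2.71 CPM (-0.80, adjusted p = 1.5e-06). Their relative CCN3 rose by 0.73 (adjusted p = 3.0e-05). HTRA1, a secreted serine protease, rose from 79.9 ± 1.6 to 129 ± 3.73 CPM (0.69, adjusted p = 4.3e-06). KAZALD1, which resembles IGFBPL1 and IGFBP7 in its domains, stood at 11.1 ± 0.303 and 10.1 ± 0.625 CPM (-0.14, adjusted p = 0.227).

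Proteases that cut binding proteins, and their inhibitors, held 1 rise and 4 falls among 11 tested (45.5% called, median -0.26). The plasminogen activator genes PLAU and PLAT fell by 0.99 and 0.80 on the log2 scale (adjusted p = 1.1e-06 and 2.9e-06). STC1, for a stanniocalcin that inhibits pappalysin, fell by 0.42 to 26.8 ± 3.65 CPM (adjusted p = 0.0044). PAPPA, the pappalysin gene whose product cuts IGFBP4, was low at 4.57 ± 0.476 CPM in control and 3.80 ± 0.413 CPM in knockdown libraries and was not called (-0.26, adjusted p = 0.148). CTSD, for the lysosomal protease cathepsin D, rose from 702, 612 and 649 CPM in siNC 1 to 3 to 976, 1017 and 1287 CPM in siBYSL 1 to 3 (0.74, SE 0.098, adjusted p = 2.0e-04). Its highest library was siBYSL 3, as for IGFBP4. With library totals, with upper-quartile factors and without siBYSL 3 the rises on this list numbered 2.

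Cathepsin D reaches the lysosome by the mannose 6-phosphate tag that IGF2R reads. Of 15 genes that make or sort that tag, 4 rose and 0 fell (26.7% called, median 0.015). This share lies below the 36.9% of all genes. GNPTAB and GNPTG, for subunits of the phosphotransferase that makes the tag, rose by 0.60 (adjusted p = 7.8e-04) and 0.26 (adjusted p = 0.0085), and NAGPA, for the uncovering enzyme, by 0.40 (adjusted p = 0.0050). M6PR, the other mannose 6-phosphate receptor gene, stood at 70.1 ± 0.495 and 73.6 ± 9.0 CPM and was not called (0.069, adjusted p = 0.528), nor were the listed genes for GGA adaptors, AP-1 subunits and clathrin. The retromer gene VPS26A was called at 0.16 (adjusted p = 0.0429), but this call was lost in 8 of 14 alternative analyses, among them those without any single siNC library, siBYSL 1 or siBYSL 2. Without siBYSL 3 the rises on this list numbered 6 and the falls 2. With library totals and with upper-quartile factors the rises numbered 5, and in the other alternatives 3 or 4.

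Adaptors and regulators of the receptors held 4 rises and 9 falls among 33 tested (39.4% called, median -0.11). GRB10, which binds and restrains both IGF1R and INSR, rose from 79.4 ± 2.20 to 125 ± 7.16 CPM (0.66, adjusted p = 1.4e-05), and the receptor phosphatase gene PTPRJ rose from 98.7 ± 5.39 to 185 ± 11.0 CPM (0.91, adjusted p = 3.0e-06). SH2B3, an adaptor that dampens kinase signalling, fell by 0.71 (adjusted p = 1.7e-05). MAD2L1BP, which takes part in INSR uptake and in mitotic checkpoint silencing, fell by 1.2 on the log2 scale (adjusted p = 1.7e-06). Its 3′ UTR held 2 copies of GCTGAAT, and those of GRB10 and PTPRJ held 1 each. The other pathway genes named by their adjusted p held none, and 11.9% of all tested genes with a 3′ UTR held the heptamer. These copies were not set against genes of like 3′ UTR length, and their part in the differences was not tested. FURIN, the protease that processes the receptor precursors, stood at 43.7 ± 2.44 and 45.0 ± 1.72 CPM and was not called.

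Downstream of the substrates, 5 of 29 tested genes of PI3K, AKT and FOXO rose and 3 fell (27.6% called, median -0.026). AKT1 rose by 0.26 (adjusted p = 0.0017) and FOXO1, a transcription factor that AKT restrains, by 0.38 (adjusted p = 0.0043). Of the paralogous kinase genes whose products AKT inhibits, GSK3A fell by 0.31 (adjusted p = 0.0011) and GSK3B rose by 0.31 (adjusted p = 0.0049). PCK2, for the mitochondrial phosphoenolpyruvate carboxykinase, fell by 0.44 (adjusted p = 0.0028). The catalytic subunit gene PIK3CA was not called (0.071, adjusted p = 0.516). Without siBYSL 3 the rises on this list numbered 9 and the falls 5, and without siBYSL 1 the falls numbered 6; over all genes falls numbered 3027 with every library, 4075 without siBYSL 3 and 2847 without siBYSL 1. Of 2 tested genes for IGF2 mRNA-binding proteins, IGF2BP2 fell by 0.23 (adjusted p = 0.0071), a call lost with library totals and without siNC 3, and IGF2BP3 was not called (0.080, adjusted p = 0.512), although 1 rise was called on this list without siBYSL 3.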

How the data were processed

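Poly(A) RNA of 6 cultures was sequenced strand-specifically as paired reads of 150 nt, per the labels' protocols. The authors deposited raw counts as whole numbers for each Ensembl gene. The submitters' processing notes name HISAT2, DESeq2 and the build GRCh38.p13 without role or version. Which counter, strand setting and annotation were used is not given in the sources used here. Counts were filtered with filterByExpr, scaled with TMM factors and tested with the edgeR quasi-likelihood F test (R 4.3.3, edgeR 4.0.16; group-only design, robust), with Benjamini-Hochberg adjustment over 16412 genes and a threshold of 0.05. SE is the absolute log2 fold change over the square root of F, and intervals are 1.96 SE to each side. CPM uses TMM-scaled library sizes. The common biological coefficient of variation was 0.0649, and p-values describe spread between 3 and 3 cultures of a single line. Lengths, coordinates and 3′ UTRs (the longest of a coding transcript) came from GENCODE 29, on GRCh38 as the counts, and were joined by identifier without version; promoters came from RefSeq.

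The members and lists were chosen with earlier results of these data known. Named pathway genes were up to 4 per list with the smallest adjusted p, an adjusted p under 0.05 and no overlap between groups; KAZALD1, PAPPA, M6PR, FURIN, PIK3CA, GSK3B, IGF2 and IGF2BP3 were named after their values were seen. The fit was tested on simulated data. Alternatives changed the scaling (library totals, DESeq2 size factors or upper-quartile factors), the filter (none, or 1 CPM in 3 libraries), the test (the DESeq2 Wald test with DESeq2 1.42.0, or limma-voom, limma 3.58.1) or the design (a replicate block), or left out each library in turn.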

Additional observations from a re-analysis of the deposited data

How the results depend on the processing

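The 6 higher members (IGFBPL1, IGFBP4, IGFBP3, IGF1R, INSR and IGF2R) were called higher in all 14 alternatives, which use the libraries that led to the choice of the set and so give no further support. The count of lower members was 1, but 0 with library totals, and 0 to 2 with a library left out: IGFBP7 lost its call without siNC 3 and without siBYSL 2, and IGFBP6, at 0.02 with all libraries and -0.17 to 0.13 with a library left out, was called lower without siBYSL 3, at -0.17. Library totals also lowered the count of falls over all genes from 3027 to 1989 and moved the share of rises among calls from 50.04% to 67.37%; they shift the median gene by 0.078 on the log2 scale. Rises on the pathway lists numbered 18, and 15 to 28 with a library left out, 28 being without siBYSL 3, against 3032 and 2121 to 3929 over all genes. With the replicate block 2802 genes were higher and 2764 lower; members called stayed at 6 higher and 1 lower, and VPS26A lost its call. Same-numbered libraries deviated from their group means with correlations of -0.129, 0.0596 and 0.0106. Libraries of different number gave -0.168 to 0.151, so no deviation shared by number was seen. Whether cultures of the same number were handled together cannot be told from this. Genes of few counts, such as IGF2 and PAPPA, have wide errors at this depth.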
